A study of Mus musculus with 2 samples.

Results

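The replication-dependent histone genes of the mouse were examined in thymus chromatin mapped by DNase-seq. They were taken as the protein-coding genes of the GENCODE M21 annotation (mm10, GRCm38) whose symbol starts with Hist1h, Hist2h, Hist3h or Hist4h. This gave 67 of 21938 protein-coding genes, with 6 H1, 18 H2A, 18 H2B, 12 H3 and 13 H4 genes. For each gene, the peaks and footprints within 500 bp of any annotated start were scored.

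The material was whole thymus of B6CASTF1/J mice, an F1 hybrid, all of them females aged 10 days and without a labelled treatment. The 2 libraries are numbered biological replicates 1 and 2 and come from females that the labels number separately under a shared donor identifier. They form a single group, with no treated, mutant or control tissue beside it. Each mouse carries a CAST/EiJ set of chromosomes next to the C57BL/6J set, and the reference sequences printed here are of the latter. In DNase-seq, the enzyme DNase I cuts open chromatin in isolated nuclei. A peak is a stretch cut more than its surroundings, and a footprint is a short protected stretch amid cut DNA. Footprints were scored over the whole window, also where they lay outside called peaks. In bulk tissue, more cells with an open promoter and more cutting per cell cannot be told apart.

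Core histones H2A, H2B, H3 and H4 form the nucleosome, and the linker histone H1 binds the DNA that enters and leaves it. The replication-dependent genes supply these proteins while DNA is copied in S phase. They lie in clusters, their coding sequences are mostly free of introns, and their mRNAs end in a stem-loop in place of a poly(A) tail. The nuclear protein Npat gathers at the clusters and is needed for their transcription. Dividing thymocytes, the developing T cells that fill the thymus, are among the cells that need this supply.

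Replicate 1 held 132737 peaks and replicate 2 held 69798, with 375374 and 210014 footprints. The median peak height was 0.625 and 0.828 in the authors' scaled units, in which all heights below are given. Read numbers were not used here, and no counting interval is attached to any share. Of 8 thymocyte markers, 8 had a promoter peak in both replicates, against 0 of 6 hepatocyte markers and 0 of 3 B cell markers. Of 3 erythroid markers, only Gata1 had a peak (1.04 and 0.660), and of 3 epithelial markers only Aire did (5.21 and 4.43).

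Most histone genes had an open start. A promoter peak was present at 58 of 67 genes in replicate 1, where 63.4% of all protein-coding genes had one, and at 58 in replicate 2, where 57.8% did. The same 58 genes, 86.6%, had a peak in both replicates, beside 57.2% of all genes. No histone gene had a peak in a single replicate alone. In the smaller of the peak files of each library, 57 histone genes kept a peak in both replicates, beside 53.6% of all genes.

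The median promoter height of histone genes was also above that of all genes, a contrast that carries their larger share of genes with a peak. Heights over genes with a peak alone were not compared. With a gene without a peak counted as 0, the median height over the 67 genes was 7.28 in replicate 1 and 3.55 in replicate 2, beside 1.23 and 0.881 over all genes of the annotation. Divided by the median height of all peaks of the library, this was 7.96 ± 5.20 (SD, n = 2), beside 1.51 ± 0.636 for all genes. The SD is large because the ratio was 11.6 in replicate 1 and 4.28 in replicate 2. Neighbouring histone genes can share a peak, so that the 58 genes rested on 49 distinct highest peaks in each replicate.

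**Figure D1:**
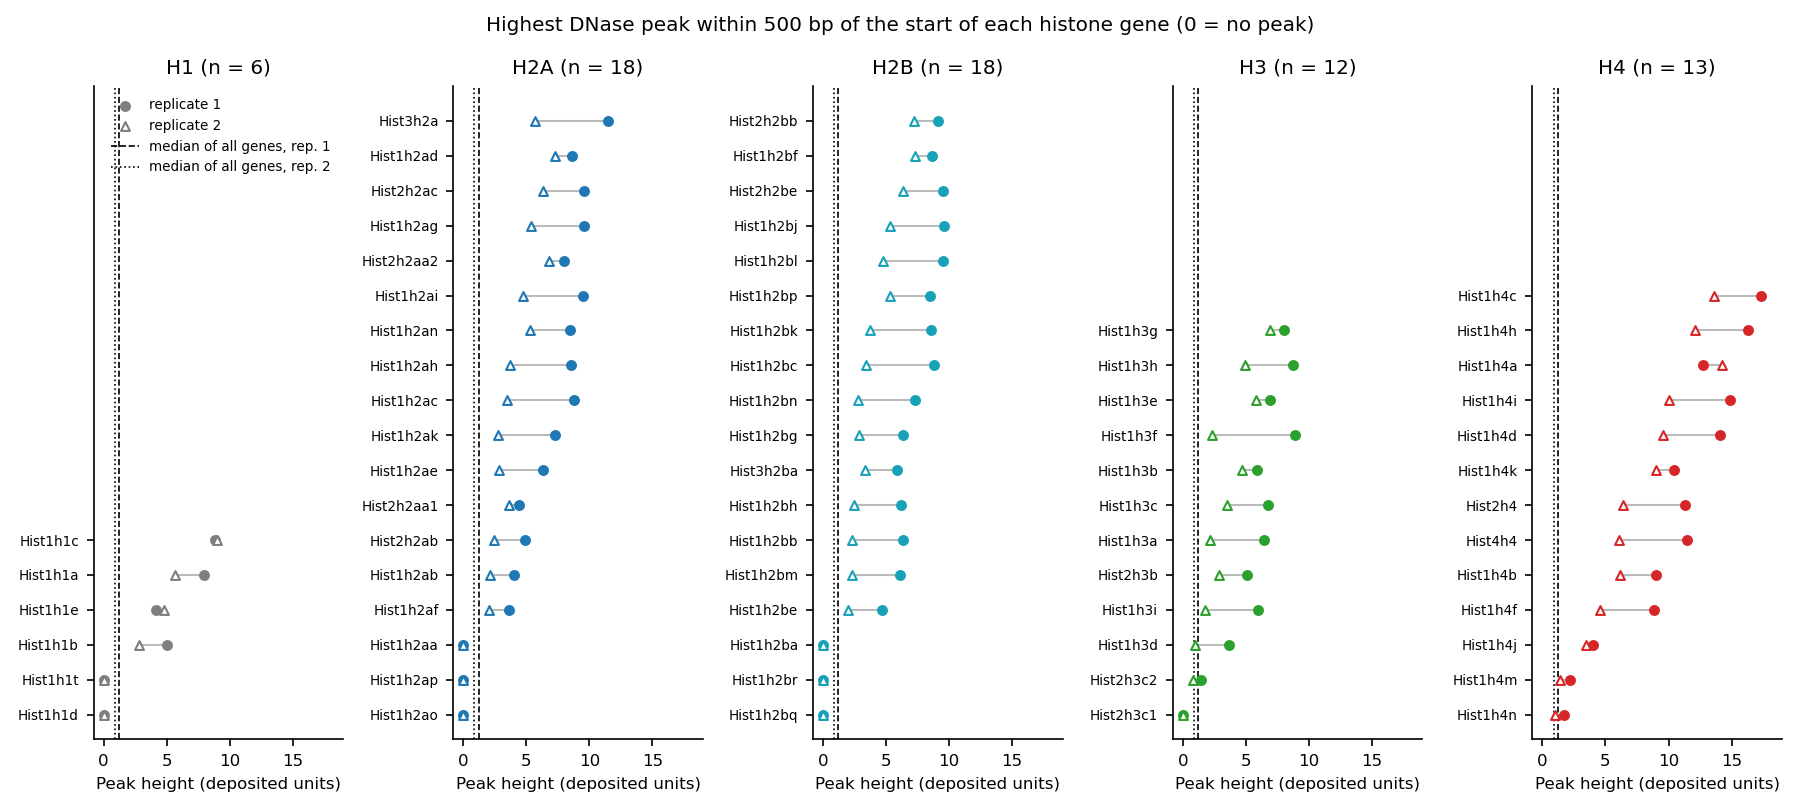
Height of the highest DNase peak within 500 bp of the start of each of the 67 histone genes (x axis, the authors' scaled units), by histone type, with filled circles for replicate 1, open triangles for replicate 2 and a grey line joining both. H4 genes reach 17.4 and 14.3, H4 is the type in which no gene sits at 0, and most circles lie to the right of their triangle.

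H4 genes stood highest among the types. H4 is the core histone whose genes all encode nearly the same protein. All 13 had a peak in both replicates, and their median height was 11.3 and 6.40. Relative to the median peak of the library this was 12.9 ± 7.31 (SD, n = 2), against 8.25 ± 5.62 for H2A, 7.31 ± 5.08 for H2B, 6.52 ± 4.78 for H3 and 5.97 ± 1.92 for H1. H4 had the highest median in each replicate, while the spread between replicates was of the size of the differences between types. Among all protein-coding genes, the highest 10.0% by promoter height began at 9.18 in replicate 1 and 9.38 in replicate 2. Of the 67 histone genes, 15 (22.4%) were in that class in replicate 1 and 5 (7.46%) in replicate 2, so the share was below 10.0% in replicate 2. H4 contributed 8 and 5 of its 13 genes to that class, H2A 4 and 0, H2B 3 and 0, and H1 and H3 none.

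The highest histone promoter in replicate 1 was that of Hist1h4c (chr13:23697635-23698454, minus strand), at 17.4, and it stood at 13.6 in replicate 2. Hist1h4h (chr13:23531050-23531519, plus strand) reached 16.3 and 12.1. Hist1h4a (chr13:23760692-23761230, minus strand) reached 12.7 and 14.3, so that it was the highest histone promoter of replicate 2 and the only H4 gene with a higher peak there. Hist1h4i (chr13:22040636-22041362, minus strand) followed at 14.8 and 10.1. Hist2h4, at 11.3 and 6.40, stood at the median of the type. The lowest H4 genes were Hist1h4m, at 2.19 and 1.39, and Hist1h4n, at 1.69 and 1.02. These still lay above the median of all genes in both replicates, and below the next H4 gene, Hist1h4j, at 4.02 and 3.43.

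The H4 promoters shared a short sequence near the start. Hinfp, a zinc finger protein that activates H4 genes, is known for a site that holds the letters GGTCCG. These letters were searched on both strands of the 250 bases upstream of the annotated start, and they were present at 12 of 13 H4 genes, each time on the sense strand. They were present at 7.69% of all protein-coding genes, at 1 of 18 H2B and 1 of 12 H3 genes, and at no H1 or H2A gene. The 30 bases from 6 bases before the match are given for the 12 genes in the direction of transcription, from the GRCm38 reference, because the footprints described next lie on them. Capitals mark GGTCCG.
Hist1h4j (chr13:21735010-21735039, plus strand): catttcGGTCCGcccgctacagtataaaaa
Hist1h4k (chr13:21750562-21750591, minus strand): catttcGGTCCGcccgccgcagtataaaaa
Hist1h4m (chr13:21811693-21811722, plus strand): cactccGGTCCGcaagttccctataagagg
Hist1h4n (chr13:21832220-21832249, minus strand): cactccGGTCCGcaagttccctataagagg
Hist1h4i (chr13:22041385-22041414, minus strand): cactccGGTCCGcaagttccctataagagg
Hist1h4h (chr13:23531033-23531062, plus strand): caatcaGGTCCGaaaacactgcatataagt
Hist1h4f (chr13:23551691-23551720, minus strand): ctaaaaGGTCCGcattcgccatatatatac
Hist1h4d (chr13:23581515-23581544, plus strand): caaacaGGTCCGcattggtattataaaagc
Hist1h4c (chr13:23698481-23698510, minus strand): caaccaGGTCCGcagaaggcctatttaaag
Hist1h4b (chr13:23756937-23756966, plus strand): caaccaGGTCCGataagagcctataataac
Hist2h4 (chr3:96263356-96263385, minus strand): caatctGGTCCGatcctctcatatattagt
Hist4h4 (chr6:136804440-136804469, minus strand): caatcaGGTCCGctcccaggaaatataagc

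In 11 of the 12 windows the letters TATA followed, beginning 15 to 17 bases after the first base of GGTCCG. That pattern was looked for after the sequences had been seen. The median position of the first G was 46 bases upstream of the RefSeq start (-46), with a range from -47 to 6 over the 11 genes that have a RefSeq start.

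Footprints covered this element. In replicate 1 a footprint overlapped GGTCCG at 12 of 12 H4 genes, and each covered all 6 letters. These footprints were 30 to 47 bp wide, with a median of 39 bp, beside a median of 11 bp for all footprints at protein-coding starts. The latter were not picked for overlap with an element, which favours wide footprints, so the 2 sets are not alike. In 6 of the 12 the last protected base was 26 bases after the first G, and in the others it was 12 to 30 bases after it, so that most footprints ran on over the bases where TATA lies. In replicate 2 a footprint overlapped GGTCCG at 9 of 12 genes. Those were 12 to 47 bp wide, with a median of 28 bp, and 5 covered the whole element. The genes without a footprint on it in replicate 2 were Hist1h4j, Hist1h4m and Hist1h4n, the 3 with the lowest peaks of the type.

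The same letters occur upstream of other genes. Of the 1827 GGTCCG copies upstream of annotated genes, 528 (28.9%) overlapped a footprint in replicate 1 and 457 in replicate 2. The share moved with peak height. Over other genes with any promoter peak it was 515 of 1598 copies in replicate 1 and 447 of 1518 in replicate 2. Over other genes whose promoter peak was at least as high as the H4 median, it was 67 of 134 copies in replicate 1 and 223 of 558 copies in replicate 2. At the H4 genes it was 12 of 12 and 9 of 12, as given above.

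Hist1h4d (peak 14.1 and 9.55) shows the arrangement in full, and Hist1h4a is the H4 gene without GGTCCG. The 200 bases upstream of the RefSeq start, which lies 30 bp upstream of the GENCODE start in Hist1h4d and 19 bp upstream of it in Hist1h4a, are given in the direction of transcription, with capitals for any of the motifs searched, on either strand.
Hist1h4d (chr13:23581368-23581567, plus strand): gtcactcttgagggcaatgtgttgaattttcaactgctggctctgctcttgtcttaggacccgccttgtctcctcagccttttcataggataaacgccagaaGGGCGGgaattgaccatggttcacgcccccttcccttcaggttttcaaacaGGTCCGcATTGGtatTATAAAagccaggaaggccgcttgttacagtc
Hist1h4a (chr13:23761250-23761449, minus strand): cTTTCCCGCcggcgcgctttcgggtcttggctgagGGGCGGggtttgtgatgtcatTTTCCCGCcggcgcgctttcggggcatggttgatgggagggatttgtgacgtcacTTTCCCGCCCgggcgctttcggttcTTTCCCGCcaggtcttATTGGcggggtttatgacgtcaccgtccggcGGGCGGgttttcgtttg

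Positions in these runs, and in those printed further on, are counted back from the last base of the run as -1 and so differ from positions relative to the GENCODE start where the run ends at another start. A footprint of replicate 1 protected bases -65 to -19 of Hist1h4d, a single stretch of 47 bp over GGTCCG, the inverted CCAAT box (ATTGG) and TATAAA. In replicate 2 the same stretch was split into -65 to -53 and -45 to -18. Hist1h4a carried 4 copies of TTTCCCGC, the letters of a common E2F site, and was the only histone gene with that motif, which 1.06% of all genes had. A footprint overlapped 2 of these copies in replicate 1 and 3 in replicate 2, beside 58.6% and 59.1% of the copies at other genes at least as high as the H4 median. Hist1h4a had 12 footprints in each replicate. The footprint nearest to the end of its run covered -43 to -13 in replicate 1 and -42 to -11 in replicate 2, over a copy of GGGCGG, the GC box.

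H2A and H2B genes lie largely in head-to-head pairs. H2A and H2B bind each other as a dimer before they enter the nucleosome. Of 13 pairs of histone genes with diverging starts under 1 kb apart, 12 paired an H2A with an H2B gene and 1 an H2B with an H3 gene. The median distance between the starts was 268 bp. In both replicates, 9 of the 12 H2A-H2B pairs had a single peak that touched the scored windows of both genes. Members of such a pair thus had the same height by construction. The windows of starts this close overlap widely, so a peak can count as shared without reaching either start. Sharing in this sense says little beyond the presence of a peak. Over the pairs that shared a peak, 10 in replicate 1 and 9 in replicate 2, the height ran from 6.20 to 9.58 with a median of 8.58 in replicate 1. In replicate 2 it ran from 2.75 to 7.28 with a median of 4.73. The ranges overlapped, and every pair that shared a peak in both replicates was higher in replicate 1. The shared peak covered the midpoint between the starts in 8 pairs in each replicate, and both starts in 5 and 3 pairs. Its width was 60 to 360 bp in replicate 1 and 140 to 520 bp in replicate 2.

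**Figure D2:**
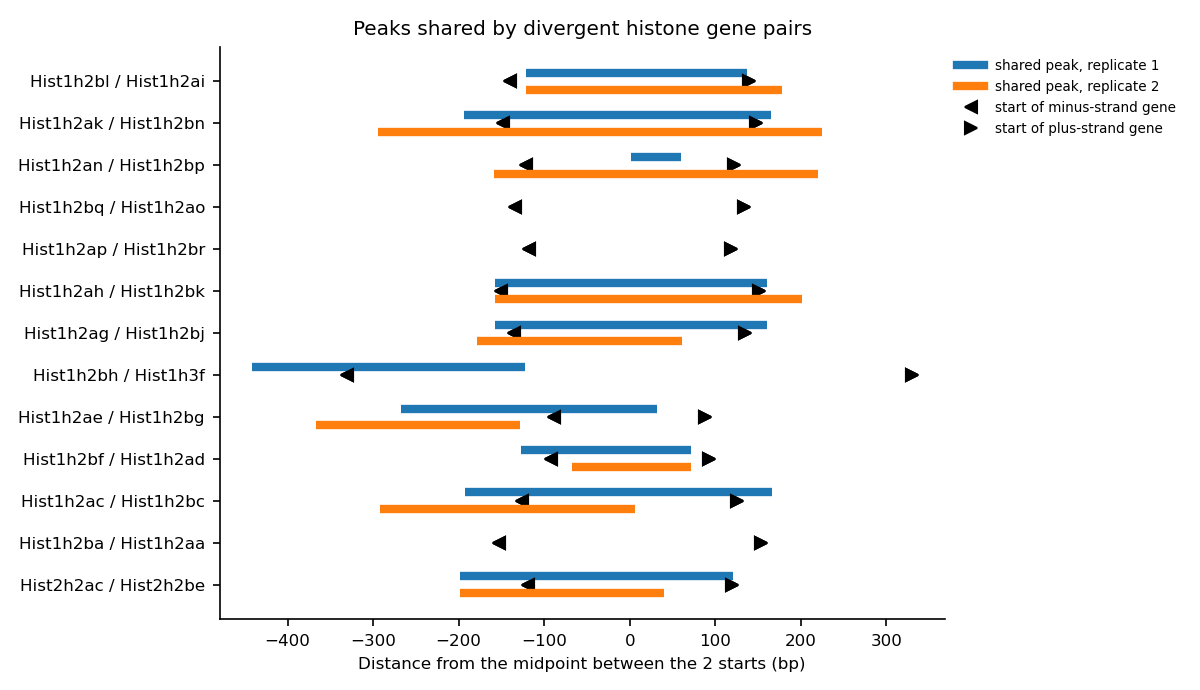
Position of the peak shared by each of the 13 divergent histone gene pairs (x axis, distance in bp from the midpoint between the starts), with blue bars for replicate 1, orange bars for replicate 2 and arrowheads for the starts and their direction. In 8 pairs in each replicate the bar crosses the midpoint, 3 pairs have no bar, and the Hist1h2bh and Hist1h3f pair has a bar in replicate 1 alone.

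The pair Hist1h2ag and Hist1h2bj shared a peak of 9.58 in replicate 1 and 5.35 in replicate 2. The pair Hist2h2ac and Hist2h2be had 9.53 and 6.31. The peak between Hist1h2bf and Hist1h2ad was 8.62 and 7.28, the nearest to equal among the pairs. Among the unpaired genes, Hist3h2a (chr11:58954685-58956830, plus strand) had 11.5 and 5.69, the highest H2A value in replicate 1, and Hist2h2bb had 9.09 and 7.19. The start of Hist3h2a is also that of Trim17, which runs over the same stretch, so that the peak belongs to both. Hist3h2a had 17 and 18 footprints, the most of any histone gene by the mean of the replicates, and Hist2h2be had 12 and 13. Hist1h2ak and Hist1h2bn, near the median of their types, shared a peak of 7.28 and 2.75. The other H2A genes with a peak had heights of at least 3.63 and 2.07, and the other H2B genes at least 4.68 and 2.00. The lowest H2B values are those of Hist1h2be, whose coding sequence begins 35168 bp after its annotated start. Its peak in replicate 2 was centred at -606 bp from the start and entered the window by its edge.

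All 18 H2A and all 18 H2B genes held CCAAT, the box bound by NF-Y, in the 250 bases upstream, on either strand. The share was 36.0% over all protein-coding genes. For Hist1h2be these bases lie upstream of its annotated start, far from its coding sequence. The 173 bases between the RefSeq start of Hist1h2bf, which lies upstream of its GENCODE start, and the start of Hist1h2ad hold 4 copies. They are given once, in the direction of Hist1h2ad, since they lie upstream of both genes. Capitals mark CCAAT and its reverse complement ATTGG.
Hist1h2ad (chr13:23574208-23574380, plus strand): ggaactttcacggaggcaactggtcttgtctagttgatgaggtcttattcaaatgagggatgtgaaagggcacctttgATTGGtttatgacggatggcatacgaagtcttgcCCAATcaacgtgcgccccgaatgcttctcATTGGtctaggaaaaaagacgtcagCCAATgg

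Counted in the same way, footprints protected -60 to -38 in replicate 1 and -59 to -40 in replicate 2, which overlap a CCAAT copy and run on to its 3′ side. A further footprint, at -103 to -85 in replicate 1 and -109 to -97 in replicate 2, overlapped another copy in replicate 1 alone. Histone genes with a promoter peak held 96 distinct CCAAT copies, and a footprint overlapped 39 of them (40.6%) in replicate 1 and 30 in replicate 2. Among other genes with a promoter peak the shares were 32.0% and 31.7%, and among other genes at least as high as the H4 median they were 51.8% and 43.3%. Beside other genes with a promoter peak, the histone share was thus higher in replicate 1 and about equal in replicate 2 (31.3%). It lay below that of the high promoters, but this sets histone genes of any peak height against a higher class.

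The octamer ATTTGCAT, bound by Pou2f1, is the classical element of H2B promoters. It was present at 8 of 18 H2B genes, in each case on the sense strand, and at 7 of 18 H2A genes, in each case on the antisense strand. No H1, H3 or H4 gene had it, and 1.45% of all genes did. The copies at paired genes are the same DNA, which leaves 10 distinct copies. The 30 bases around the copy are given for the 8 H2B genes, with the octamer in capitals, since it is known as their element.
Hist1h2bm (chr13:21722008-21722037, plus strand): ctctcgtctctATTTGCATaacagcgtgta
Hist1h2bk (chr13:22035780-22035809, plus strand): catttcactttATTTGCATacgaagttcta
Hist1h2bg (chr13:23571330-23571359, plus strand): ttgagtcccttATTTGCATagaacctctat
Hist1h2bc (chr13:23684071-23684100, plus strand): ctggaaacttcATTTGCATaatcccaccca
Hist1h2bb (chr13:23746633-23746662, plus strand): ttgagtctcttATTTGCATaaagcctttga
Hist1h2ba (chr13:23934302-23934331, minus strand): gaattccccttATTTGCATgcacccagcac
Hist2h2be (chr3:96221062-96221091, plus strand): tttgagacctaATTTGCATaaggcgttcat
Hist2h2bb (chr3:96269641-96269670, plus strand): tgtgaaacctcATTTGCATacaagctctat

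A footprint overlapped 2 of the 10 octamers in each replicate, and only the copy between Hist1h2ah and Hist1h2bk was overlapped in both. At histone genes with a promoter peak it was 2 of 9 copies (22.2%) in each replicate. Over all protein-coding genes 7.04% and 8.21% of the copies overlapped a footprint, and over other genes with a promoter peak 10.9% and 15.1% did. Over other genes at least as high as the H4 median it was 2 of 18 copies (11.1%) in replicate 1 and 15 of 50 (30%) in replicate 2. The histone share was thus below that class in replicate 2. The octamer between Hist1h2ac and Hist1h2bc had a footprint in replicate 1, and that upstream of Hist3h2a had one in replicate 2. Hist1h2ba, the testis H2B, has the octamer but no peak.

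H3 genes had lower peaks than H4 genes. H3 carries many of the modified residues of chromatin. Of 12 H3 genes, 11 had a peak in both replicates, with a median height of 6.19 and 2.60 over the 12. Hist1h3g (chr13:23535422-23535951, plus strand) had 8.06 and 6.95, Hist1h3h 8.77 and 4.92, Hist1h3e 6.92 and 5.85, and Hist1h3f 8.88 and 2.32. Hist1h3a, near the median of the type, had 6.45 and 2.17. The coding sequence of Hist1h3f begins 433 bp after its annotated start, and its highest peak was centred 358 and 468 bp after that start. The lowest value in replicate 2 was that of Hist2h3c2, at 1.49 and 0.823, whose peak was centred at -533 and -513 bp from the start and entered the window by its edge. Hist1h3d had 3.68 and 0.979. CCAAT was present at 9 of 12 H3 genes. The 200 bases upstream of the RefSeq start of Hist1h3i (peak 5.94 and 1.73) are given because the GGTCCG match outside H4 with a footprint in both replicates lies there, in reverse (CGGACC), overlapping a CCAAT box.
Hist1h3i (chr13:21783398-21783597, minus strand): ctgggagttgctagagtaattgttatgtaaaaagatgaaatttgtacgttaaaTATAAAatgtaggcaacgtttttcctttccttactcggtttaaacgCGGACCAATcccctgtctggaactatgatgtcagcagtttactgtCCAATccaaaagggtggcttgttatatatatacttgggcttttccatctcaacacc

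The footprint there covered -108 to -85 in replicate 1 and -103 to -82 in replicate 2. A second stretch, -40 to -17 in replicate 1 and -29 to -15 in replicate 2, lay over the TA-rich letters near the end of the run.

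H1 genes divided into 4 with a peak and 2 without. The linker histone compacts chromatin, and its subtypes are encoded by separate genes of the Hist1 cluster. Hist1h1c (chr13:23738808-23740367, plus strand) had 8.87 and 8.96, and Hist1h1a 7.95 and 5.70. Hist1h1b had 5.03 and 2.84, and Hist1h1e 4.15 and 4.81. Hist1h1c and Hist1h1e thus had a higher peak in replicate 2, unlike most core histone genes. The AC box AAACACA, an element known from H1 promoters, was present at 4 of 6 H1 genes, beside 5.66% of all genes. A footprint overlapped 1 of its 4 copies in each replicate, and none in both. The 4 include the copy at Hist1h1t, a gene without a peak. Footprints overlapped 13.1% and 9.51% of the copies at other genes with a promoter peak. At other genes at least as high as the H4 median they overlapped 23.5% and 20.9%. The sequences upstream of Hist1h1e and Hist1h1a are given because the most motif copies lay in footprints of both replicates there, 3 and 2. At Hist1h1b and Hist1h1c that number was 0, so the printed genes do not stand for all H1 promoters.
Hist1h1e (chr13:23622559-23622758, minus strand): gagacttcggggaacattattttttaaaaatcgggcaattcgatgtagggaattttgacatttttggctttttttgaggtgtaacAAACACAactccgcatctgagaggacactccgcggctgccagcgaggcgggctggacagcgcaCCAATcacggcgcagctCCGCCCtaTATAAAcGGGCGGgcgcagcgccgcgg
Hist1h1a (chr13:23763466-23763665, plus strand): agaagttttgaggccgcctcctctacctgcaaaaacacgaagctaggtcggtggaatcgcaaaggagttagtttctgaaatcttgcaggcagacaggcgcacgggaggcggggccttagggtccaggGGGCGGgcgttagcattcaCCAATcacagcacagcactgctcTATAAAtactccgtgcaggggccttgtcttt

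In Hist1h1e a footprint covered -37 to -19 in replicate 1 and -35 to -18 in replicate 2, over TATAAA and a GC box. In Hist1h1a it covered -39 to -14 and -39 to -12, over TATAAA, and a second one covered -100 to -61 and -101 to -61, over a GC box. In neither gene did a footprint of either replicate overlap CCAAT. At each edge, these 3 footprints differed by at most 2 bases between replicates, in genes chosen for motif overlap in both. A further footprint of Hist1h1a covered -157 to -143 in replicate 1 and -163 to -139 in replicate 2.

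No peak lay within 500 bp of 9 histone genes in either replicate. They were Hist1h1d and Hist1h1t, the H2A genes Hist1h2aa, Hist1h2ao and Hist1h2ap, the H2B genes Hist1h2ba, Hist1h2bq and Hist1h2br, and Hist2h3c1. Hist1h1t, Hist1h2aa and Hist1h2ba encode histones of the testis, where they take the place of the somatic forms. The window of Hist1h1t held 19 bases with a listed false discovery rate in replicate 2, and the windows of the other 8 genes held none in either replicate. Such bases were present at 58 histone genes in replicate 1, beside 64.8% of all genes, and at 59 in replicate 2, beside 58.8%.

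For Hist1h1d the annotated start decided the result. GENCODE places it 1770 bp upstream of the RefSeq start, and at the RefSeq start the peak height was 10.2 and 7.22, above all 4 other H1 genes with a peak in replicate 1.

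The windows of 5 others without a peak are copies of another stretch of the genome. Those of Hist1h2ao and Hist1h2ap, and of Hist1h2bq and Hist1h2br, are 100% identical over their whole length. That of Hist2h3c1 is 99.9% identical to that of Hist2h3c2. In all, 10 histone genes had a window that matched another place at 90% identity or more over at least 80% of its length. Of these, 5 had a peak in both replicates, against 53 of the other 57 genes (93.0%). The 5 were Hist2h3c2, the near-identical Hist1h4m and Hist1h4n (99.8%), and the less alike Hist1h2ad and Hist1h2bf (91.9% for Hist1h2ad). The handling of reads that fit several places is not given in the sources at hand, and its part in these counts was not tested.

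The genes lie in 4 clusters. Hist1 on chromosome 13 holds 54 of the 67, in blocks separated by more than 500 kb. The block at chr13:21715763-22043676 had a peak in both replicates at 19 of 23 histone genes, and the block at chr13:23531050-23934851 at 27 of 31. Hist2 (chr3:96219865-96270132) had 9 of 10, Hist3 (chr11:58948920-58956830) 2 of 2, and the single Hist4 gene, Hist4h4 on chromosome 6, had 11.5 and 6.07. Median heights were 7.10 and 3.43 in Hist1, 6.55 and 4.99 in Hist2, and 8.69 and 4.50 in Hist3. The heights of the clusters thus overlapped in both replicates.

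Within the Hist1 blocks, the median peak at histone starts was higher than the median of the other peaks. In the second Hist1 block, 39 of 99 peaks in replicate 1 and 34 of 84 in replicate 2 lay at histone starts, with a median height of 4.68 and 2.66, against 0.834 and 0.316 for the other peaks of the block. In the first Hist1 block, 27 of 107 and 20 of 56 peaks lay at histone starts, with medians of 2.05 and 2.52 against 0.747 and 1.08. Other genes inside the second block were mostly closed. Hfe, which acts in iron uptake, had 3.01 and 2.89, and Trim38, Slc17a1, Slc17a2, Slc17a3 and Slc17a4 had no peak. In the first block, Zfp184 had 5.80 and 5.02, Prss16, a protease of the thymic cortex, 2.49 and 1.33, and Pom121l2 0.319 and 0.400.

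Footprints followed the peaks. A footprint lay within 500 bp of 58 histone genes in replicate 1, beside 60.7% of all genes, and of 58 in replicate 2, beside 56.5%. The same 58 had one in both, beside 55.9%. There were 469 distinct footprints in replicate 1 and 336 in replicate 2. Of those in replicate 1, 211 overlapped a footprint of replicate 2, and of those in replicate 2, 228 (67.9%) overlapped one of replicate 1. Over all genes the shares were 52.5% and 67.2%. H4 had the highest shares, 54.1% and 79.8%, apart from H2A in replicate 1 (55.6%), and H3 the lowest in replicate 1, 29.7%.

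**Figure D3:**
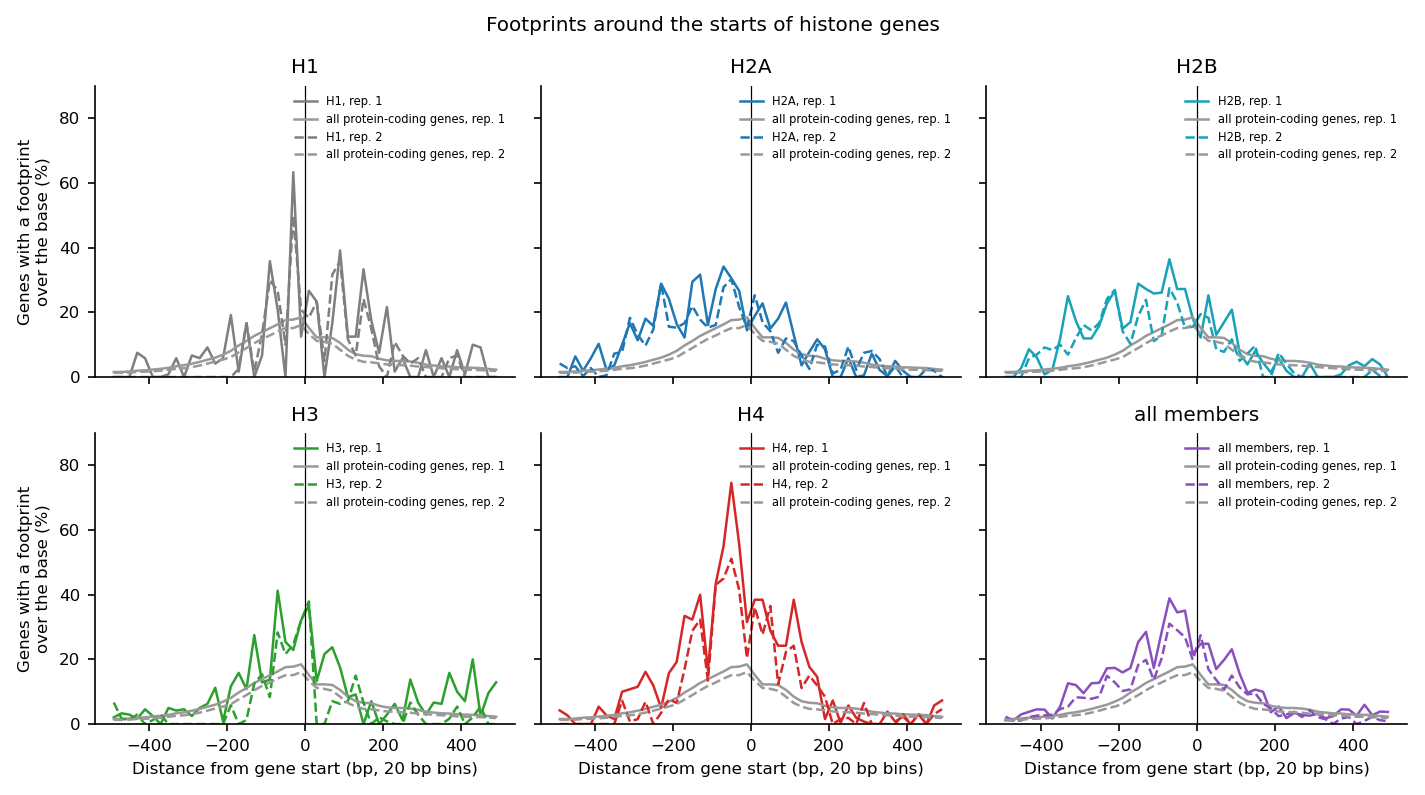
Share of genes with a footprint over the base (y axis, %), averaged in 20 bp bins by distance from the gene start (x axis, bp, upstream negative), per histone type in colour and for all protein-coding genes in grey, with solid lines for replicate 1 and dashed lines for replicate 2. H4 rises to 74.6% and 51.2% between -60 and -41, against at most 18.5% and 16.1% for all genes just upstream of the start.

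The types differed in where the footprints lay. H4 genes were covered most often from -60 to -41, in 74.6% of genes in replicate 1 and 51.2% in replicate 2, around the GGTCCG element. H1 genes had a narrow maximum from -40 to -21, at 63.3% and 50%, which is where TATAAA lies in the sequences above. H2A and H2B had broad profiles with lower maxima, 34.2% and 30.3% for H2A and 36.4% and 27.5% for H2B, between -80 and -41. H3 had 41.3% from -80 to -61 in replicate 1 and 37.9% from 0 to 19 in replicate 2, so that its maximum moved between replicates. Over all genes the maximum was 18.5% and 16.1% from -20 to -1. In the 250 bases upstream, footprints covered 24.4% and 18.6% of bases at histone genes, 34.2% and 24.8% at H4 genes, and 12.5% and 10.5% at all genes.

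The other motifs searched gave the following shares. TATAAA, the TATA box, was present upstream of 34 of 67 histone genes (50.7%), beside 11.5% of all genes. At histone genes with a promoter peak, a footprint overlapped 19 of its 28 distinct copies (67.9%) in replicate 1 and 16 in replicate 2. At other genes at least as high as the H4 median, it overlapped 20 of 50 and 49 of 209 copies (23.4%). Counted from RefSeq starts, a sense TATAAA lay wholly within 45 to 15 bases upstream in 15 of 61 histone genes (24.6%), beside 2.14% of all RefSeq promoters. The GC box GGGCGG was present at 19 of 67 histone genes (28.4%), beside 39.0% of all genes. It was found at 10 of 13 H4 and 4 of 6 H1 genes but at no H2B gene. At histone genes with a promoter peak, a footprint overlapped 16 of its 30 distinct copies (53.3%) in replicate 1 and 18 (60%) in replicate 2. Among other genes with a promoter peak the shares were 59.8% and 58.7%. Among other genes at least as high as the H4 median they were 82.5% and 76.8%. TTTGGCGC, another form of the E2F site, was at no histone gene, beside 0.520% of all genes. No motif searched contains another. A match gives only the letters in the window.

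Histone peaks were lower in replicate 2. Over the 58 genes with a peak in both replicates, the log2 ratio of the height in replicate 1 to that in replicate 2 had a median of 0.83 and ran from -0.21 to 1.94. The height was greater in replicate 1 at 55 of the 58 genes (94.8%), beside 65.0% of all genes with a peak in both. Over all such genes the median was 0.15. Among other genes the quartiles were -0.11 and 0.44, and 43 of the 58 histone genes lay above 0.44. Since each library carries its own scaling, only the difference from other genes, 0.68 on the log2 scale, is independent of it.

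By type, the median log2 ratio was 1.15 for H2B, 0.94 for H2A, 0.86 for H3, 0.56 for H4 and 0.23 for H1. The genes with the largest ratios were Hist1h3f (1.94), Hist1h3d (1.91), Hist1h3i (1.78), Hist1h3a (1.57) and Hist1h2bb (1.44). The smallest were those of Hist1h1e (-0.21), Hist1h4a (-0.17), Hist1h1c (-0.01), Hist1h4k (0.21) and Hist1h3g (0.21). H3 genes thus stood at both ends of the order.

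**Figure D4:**
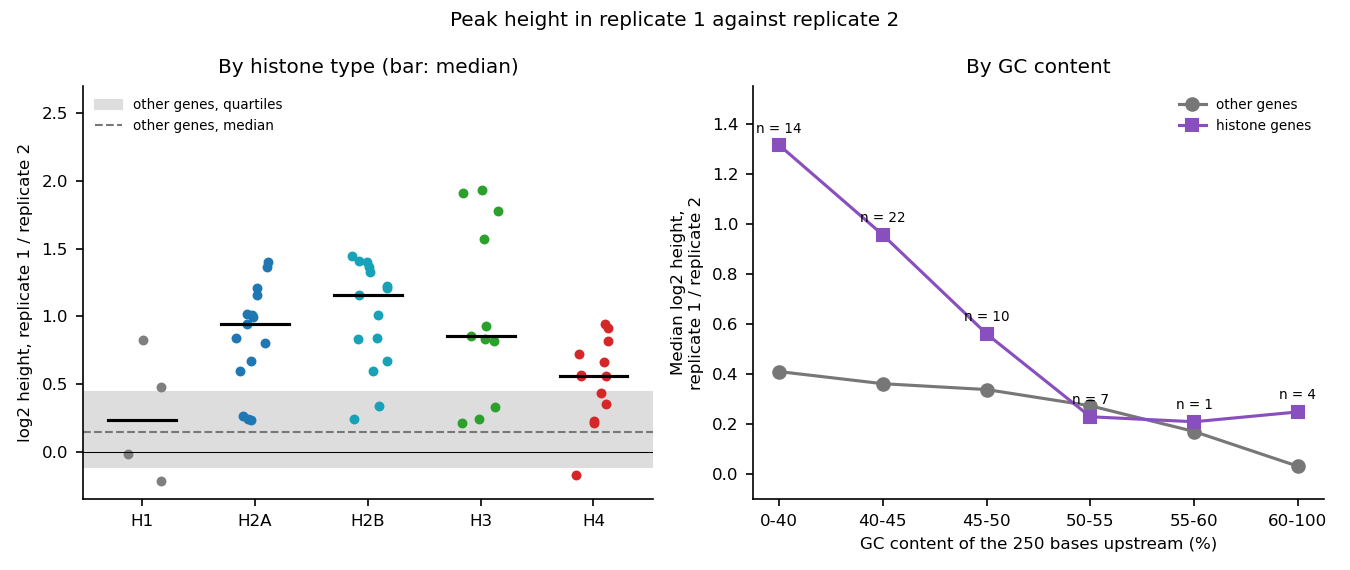
Left, log2 ratio of peak height in replicate 1 to replicate 2 (y axis) for each of the 58 histone genes with a peak in both, by type, with a bar at the median and a grey band for the quartiles of other genes; right, the median ratio by GC content of the 250 bases upstream (x axis, %) for histone genes with their number (purple squares) and other genes (grey circles). Histone genes under 40% GC have a median of 1.31 against 0.41 for other genes, and from 50 to 55% GC the medians are 0.23 and 0.27.

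The ratio moved with the base composition of the promoter. Histone promoters were poorer in GC than most, with a median of 44.4% in the 250 bases upstream, beside 54.0% over all genes. Among 14 histone genes under 40% GC the median log2 ratio was 1.31, against 0.41 for other genes. Among 22 genes from 40 to 45% it was 0.96 against 0.36, and among 10 genes from 45 to 50% it was 0.56 against 0.34. In the 7 genes from 50 to 55% the median was 0.23 against 0.27, and in the 4 genes from 60% up it was 0.25 against 0.03. The 1 gene from 55 to 60% had 0.21 against 0.17. Below 50% GC, histone genes thus exceeded other genes of like composition. From 50 to 55% they did not, and above that they were again higher, with few genes. Age, sex and strain are shared by both mice, and the share of dividing cells was not measured, so its part in the ratio was not tested.

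Genes that work with the replication-dependent histones were open as well. Of 21 genes for histone gene transcription and mRNA processing, 21 had a promoter peak in both replicates, beside 57.2% of all protein-coding genes. Their median over the library median was 11.4 ± 0.921 (SD, n = 2), beside 1.51 ± 0.636 for all genes. Npat had 10.96 and 16.3, and Hinfp 8.92 and 13.9. Slbp, which binds the stem-loop of the mRNA, had 5.74 and 6.16. Nfya, a subunit of NF-Y, had 17.7 and 17.1, Pou2f1 9.32 and 8.88, and Casp8ap2, a protein of the histone locus body, 15.0 and 14.1. Npat and Hinfp were higher in replicate 2, opposite to most of the histone genes.

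Replication-independent histone genes, which mostly supply histones outside S phase, had a peak in both replicates at 11 of 13, beside 57.2% of all genes. The median was 8.20 ± 3.82 (SD, n = 2) over the library median, beside 1.51 ± 0.636 for all genes. H2afx, whose product marks DNA breaks, had 12.4 and 15.1. H2afz had 10.6 and 14.6, and H3f3b 9.62 and 10.8. The germ cell linker histones H1fnt and H1foo had no peak in either replicate, as was the case for the testis genes among the replication-dependent set.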

How the data were processed

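DNase-seq libraries of 2 thymuses were used, each with a pair of peak lists, a footprint list and a list of false discovery rates on mm10. Column 7 of the peak lists is the deposited signal, the height of each peak, scaled by the authors in a way that is not stated. The footprint list holds the constant 0.01, taken as the threshold of the authors' call. The deposited false discovery rates (q-values) are listed below 0.05. The aligner and callers are not given in the sources used here. Peaks were called per library.

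The peak list with more rows was the main one. Overlap was counted from 1 bp, without pooling replicates. Gene starts came from GENCODE M21, and sequence from the GRCm38.p6 assembly, with RefSeq starts for 61 of the 67 genes. The windows were matched to the genome with BLAST+ 2.17.0. Other steps used Python 3.11.15, numpy 2.4.6 and pysam 0.24.0, and the overlap routine was tested on simulated peaks. Motifs were searched in 250 upstream bases. With 1 group of 2 samples, counts and medians are given without tests, and p-values are absent. The SD covers 2 libraries, and nothing beyond the numbering of the females says that they are separate animals.

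Members, lists and motifs were chosen with earlier results of these data known. Named by rule were, per type, the 4 highest genes, those nearest to the median and those without a peak, and over all members the 5 with most footprints and the 5 largest and smallest replicate ratios. The longer upstream runs were printed for genes that, within their type, were among those with the most motif copies in footprints of both replicates. Hist1h2be, Hist1h4j, Hist1h4k, Hist1h4m, Hist1h4n, Hist2h3c2, the genes between the histone genes and the paired genes were named after their values were seen.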

Additional observations from a re-analysis of the deposited data

How the results depend on the processing

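For 29 results, 220 alternatives were computed. Of these, 14 leave a replicate out of a mean over both, which by construction moves it by less than their SD, so they say nothing of stability. Without replicate 1 or replicate 2, the median height over the library median was 4.28 or 11.6 (main 7.96). Without replicate 1 it also moved by over 1.5 times for H2A (4.28), H2B (3.72), H3 (3.14) and H4 (7.72), and without replicate 2 for H3 (9.90). Of the other 206, 201 kept the value within the spread between replicates or, for counts, within 1.5 times. For heights that spread was wide, 5.20 around 7.96 over all members, so staying within it says little of stability. The smaller peak list, equal peak numbers and the height minimum left that median at 7.96. In each of these settings heights were still divided by the median of the main peak list. The settings mainly drop low peaks, so the median could hardly move, and its value there says nothing of stability. The alternatives covered the window, the smaller peak list, equal peak numbers, a height minimum, the start used, midpoint overlap, leaving out genes whose window matches elsewhere, the motif span and leaving out either replicate. Histone genes with a peak in both replicates numbered 53 to 59, the lowest without the 10 matching genes. The exceptions were few. With RefSeq starts, an alternative chosen after seeing the data, the median H1 height over the library median was 8.36 (main 5.97), since Hist1h1d then has a peak. The median footprint position was -32.25 bp with a window of 250 bp and -30 bp with RefSeq starts (main -47.25). With 500 upstream bases, TTTCCCGC was present at 2 genes (main 1) and GGGCGG at 34 (main 19). The numbers of reads are unknown, so the depth behind each peak could not be given. No paired analysis was possible because there is 1 group.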
